A study of Mus musculus with 6 samples.

Results

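The immunity-related GTPases (IRGs) of the mouse were followed in uterine RNA after loss of Stat3. Their genes were found by name in the platform's annotation of the deposited table: 7 of the 1382 probe sets carried the name of Irgm1, Irgm2, Igtp, Iigp1, Ifi47 or Gm4951 alone, with 2 probe sets for Iigp1 and 1 for each of the other genes, so all 6 genes were present among the 987 genes named. Uteri of female mice were taken at 3.5 days post coitum, before the embryo implants, and 3 Stat3 d/d arrays, with deleted alleles, were compared with 3 Stat3 f/f arrays, with intact floxed alleles. The sources used here give no Cre driver, no cells in which it acts, no strain and no age. Nor do they tie each array to its own animal, so p-values measure the spread between these arrays, which could be technical only. Values are linear probe set intensities, and the number of arrays limits their precision.

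IRGs are large GTPases of the immune defence inside cells, and in the mouse they are induced mainly by interferon gamma. The effector IRGs, here Iigp1 (also called Irga6), Ifi47 (Irgd) and Gm4951 (Ifgga2), carry the usual lysine in the GTP-binding motif. Members of this class load onto the vacuoles of intracellular pathogens such as Toxoplasma. The regulatory IRGM proteins, here Irgm1, Irgm2 and Igtp (Irgm3), have a methionine in place of that lysine, sit on the cell's own membranes and keep effectors inactive there. Stat3 encodes the transcription factor through which interleukin-6 and its relatives signal.

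The 3 IRGM genes and Ifi47 lie on chromosome 11. In the RefSeq gene order of GRCm38.p6, Igtp and Irgm2 are direct neighbours among protein-coding genes. RefSeq promoter sequences (GRCm38.p6, 250 bases before to 50 after the annotated start) are shown for these 4 of the 6 genes only. Those of Iigp1 and Gm4951 are not shown. The 4 are given because these genes lie on chromosome 11, and 2 of the sequences are close copies. Capitals mark letter matches on either strand to the interferon gamma-activated site TTCNNNGAA (GAS) or to the interferon-stimulated response element, GAAA, any 2 bases and GAAA again (ISRE, bound by interferon regulatory factors). Each sequence is written 5′ to 3′ on the gene's strand.
Igtp, chr11:58199306-58199605, plus strand: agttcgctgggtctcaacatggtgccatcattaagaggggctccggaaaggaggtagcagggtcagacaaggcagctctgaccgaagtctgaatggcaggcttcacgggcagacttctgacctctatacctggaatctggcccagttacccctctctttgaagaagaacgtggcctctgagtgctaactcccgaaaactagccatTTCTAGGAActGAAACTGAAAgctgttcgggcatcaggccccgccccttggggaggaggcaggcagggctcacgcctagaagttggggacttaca
Irgm2, chr11:58214727-58215026, plus strand: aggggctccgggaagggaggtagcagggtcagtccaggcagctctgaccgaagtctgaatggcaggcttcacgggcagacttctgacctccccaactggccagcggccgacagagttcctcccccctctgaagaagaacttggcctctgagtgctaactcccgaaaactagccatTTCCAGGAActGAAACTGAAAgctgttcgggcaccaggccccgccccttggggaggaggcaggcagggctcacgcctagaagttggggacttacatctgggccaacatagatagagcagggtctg
Irgm1, chr11:48871371-48871670, minus strand: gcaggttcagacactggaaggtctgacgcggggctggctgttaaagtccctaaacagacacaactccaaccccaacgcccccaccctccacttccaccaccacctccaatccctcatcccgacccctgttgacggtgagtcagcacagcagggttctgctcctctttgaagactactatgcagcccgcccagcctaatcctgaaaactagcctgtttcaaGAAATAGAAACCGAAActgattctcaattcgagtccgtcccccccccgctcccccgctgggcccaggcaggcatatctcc
Ifi47, chr11:49076337-49076636, plus strand: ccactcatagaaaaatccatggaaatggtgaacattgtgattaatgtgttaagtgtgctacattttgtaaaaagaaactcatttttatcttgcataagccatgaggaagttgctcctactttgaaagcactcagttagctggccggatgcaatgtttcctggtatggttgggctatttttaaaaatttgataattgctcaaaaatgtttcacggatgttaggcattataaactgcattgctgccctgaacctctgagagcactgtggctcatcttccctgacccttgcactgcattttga

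The Igtp and Irgm2 promoters were 92.1% identical over 265 aligned bases and shared an unbroken run of 61 bases. The other pairs among these 4 promoters were between 57.0% and 67.2% identical in the same gapped alignment. Both carried a GAS followed by an ISRE, and the letters of the ISRE were GAAACTGAAA in both. The GAS read TTCTAGGAA in Igtp and TTCCAGGAA in Irgm2. These matches began 45 and 34 bases before the annotated start in Igtp, and 75 and 64 bases before it in Irgm2. The Irgm1 promoter held 2 ISRE matches that overlap each other, GAAATAGAAA and GAAACCGAAA, at 30 and 24 bases before the start. Neither set of letters was found in the Ifi47 window. Of all 32851 RefSeq promoter windows of this length, 8.3% held the GAS letters, 3.44% the ISRE letters and 0.131% a GAS followed on the same strand by an ISRE within 25 bases, counted between first bases. Among 956 windows of genes with a probe set of their own in the table these shares were 8.26%, 6.8% and 0.523%. The last share stands for 5 windows, those of Igtp, Irgm2, Bst2, Cxcl14 and Parp11, named after their values were seen. Igtp and Irgm2 rose, while a probe set of Cxcl14 was lower in Stat3 d/d (-0.80 on the log2 scale, SE 0.23). Iigp1 and Gm4951, the members with the largest rises (3.42 and 4.09 on the log2 scale), were not among these 5. The letters searched were chosen after the sequences had been seen, and a match is not a bound site.

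**Figure D1:**
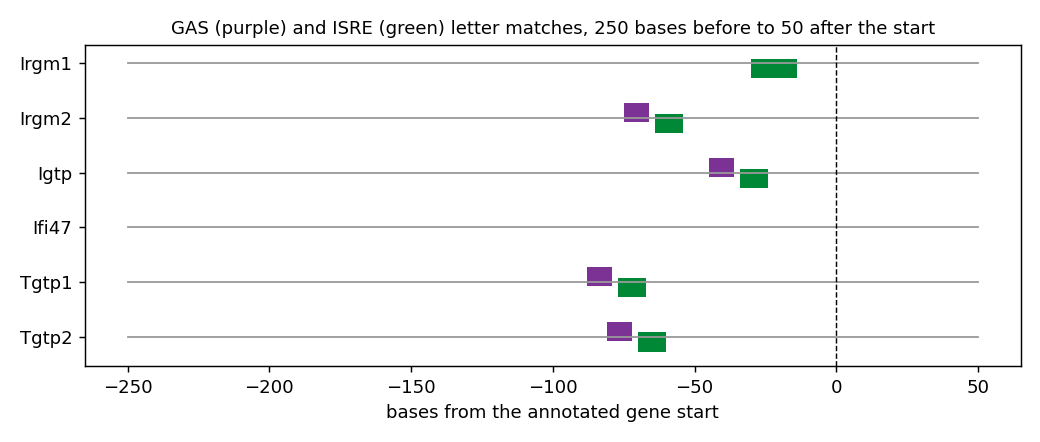
Positions of GAS letter matches (purple) and ISRE letter matches (green) in the RefSeq promoter windows of the IRG genes of chromosome 11, with Tgtp1 and Tgtp2 of the same family. The horizontal axis gives bases from the annotated start (dashed line). A GAS and an ISRE stand side by side in Irgm2, Igtp, Tgtp1 and Tgtp2, Irgm1 has 2 overlapping ISRE matches and Ifi47 has none.

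The deposited table had been selected on the comparison made here. All 1382 probe sets differed at least 1.5-fold between the group means, had groups that do not overlap and had an adjusted p under 0.05 in limma, so percent called was 100 in either direction and 67.4 for probe sets higher in Stat3 d/d. A pass of an IRG probe set therefore follows from its place in the table, and the size of its change and its spread between arrays are what is described here. A gene outside the table was not analysed here. The brighter Stat3 probe set read 121, 101 and 131 in Stat3 d/d arrays 1, 2 and 3, against 262, 356 and 243 in Stat3 f/f arrays 1, 2 and 4, and its place relative to the deleted exons was not looked up. Changes below are differences on the log2(intensity + 1) scale, Stat3 d/d minus Stat3 f/f, with limma's standard error and its p adjusted over the whole table.

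All 7 IRG probe sets were higher in every Stat3 d/d array than in any Stat3 f/f array, against 67.4% of the table. Their median log2 change was 2.72, against 0.70 over the whole table. A log2 change of at least 2, which is 4-fold, was reached by 6 of the 7 probe sets, against 6.22% of the table, and one of at least 3 by 3 of the 7, against 1.3% of the table. The count at 3 was 2 after quantile normalization, 1 after median centring and 1 with a pseudocount of 16, against 0.796%, 0.724% and 0.507% of the table. By gene the changes ran between 1.67 for Irgm1 and 4.09 for Gm4951, with a median of 2.67. Bulk RNA cannot tell more cells of a type from more RNA per cell.

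**Figure D2:**
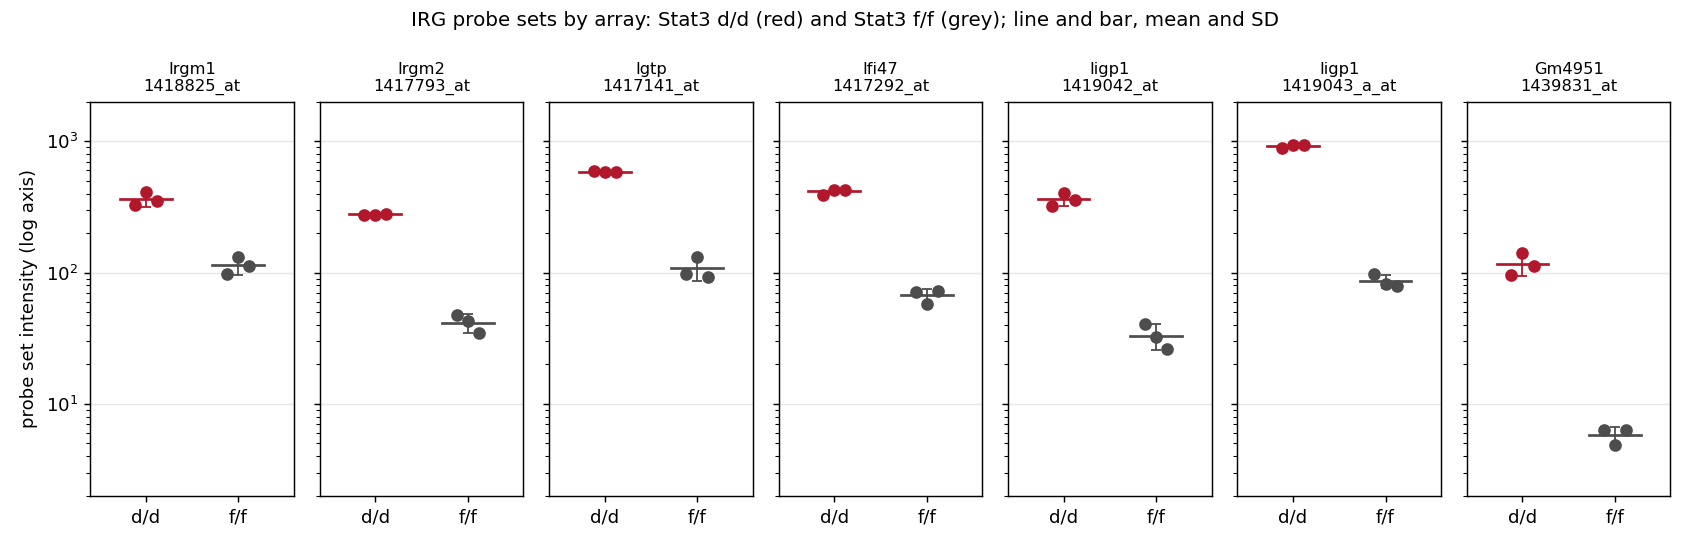
Intensity of the 7 IRG probe sets (log axis) on each array, with Stat3 d/d in red left of Stat3 f/f in grey, horizontal lines for the mean and bars for the SD of 3 arrays. The groups are apart in every panel, with the widest gap for Gm4951 and the narrowest for Irgm1.

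Among the regulatory genes, Irgm1 encodes a membrane-bound IRGM protein needed in mice for resistance to mycobacteria and linked to autophagy. It read 327, 414 and 349 in Stat3 d/d arrays 1, 2 and 3, against 97.2, 131 and 112 in Stat3 f/f arrays 1, 2 and 4. The groups did not overlap, and array 2 was the highest of its group in both genotypes. Irgm1 averaged 363 ± 45.1 in Stat3 d/d and 113 ± 16.8 in Stat3 f/f (SD, n = 3 arrays each). Its rise, 1.67 (SE 0.18, adjusted p = 3.62e-05 in limma), was the smallest of the 6 genes, with a 95% interval between 1.27 and 2.07.

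Irgm2 encodes an IRGM protein of the Golgi membranes. It read 277, 275 and 280.2 in Stat3 d/d arrays 1, 2 and 3, against 47.9, 42.5 and 34.5 in Stat3 f/f arrays 1, 2 and 4. The Stat3 d/d arrays were nearly level, with a highest-to-lowest ratio of 1.02, while the Stat3 f/f arrays were spread over 1.39-fold. The log2 change was 2.72 (SE 0.17, adjusted p = 1.00e-06), and the ratio of group means was 6.66.

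Igtp, the neighbour of Irgm2 with the similar promoter shown above, encodes the IRGM protein of the endoplasmic reticulum. It read 589.8, 587 and 586 in Stat3 d/d arrays 1, 2 and 3, against 98.4, 132 and 93.2 in Stat3 f/f arrays 1, 2 and 4. In Stat3 d/d these values lay within 1.01-fold of each other, an SD of 0.0053 on the log2 scale, and the table's median SD in that group was 0.17. No other probe set of the table had an SD that low in Stat3 d/d, and Irgm2, at 0.014, was among the 7 lowest. The log2 change of Igtp was 2.45 (SE 0.18, adjusted p = 2.24e-06), 5.45-fold by group means.

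Among the effectors, Ifi47 encodes the GTPase IRG-47, needed in mice for resistance to Toxoplasma. It read 393, 429 and 426 in Stat3 d/d arrays 1, 2 and 3, against 70.6, 58.2 and 73.0 in Stat3 f/f arrays 1, 2 and 4. Its lowest Stat3 d/d array was 5.38 times its highest Stat3 f/f array. The log2 change was 2.62 (SE 0.17, adjusted p = 1.00e-06), which lies between those of the regulatory genes Igtp and Irgm2.

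Iigp1, the best-studied effector, coats the vacuole membrane of Toxoplasma in mouse cells. Its brighter probe set read 896, 938 and 941 in Stat3 d/d arrays 1, 2 and 3, against 97.8, 81.6 and 79.1 in Stat3 f/f arrays 1, 2 and 4. The dimmer probe set read 321, 401 and 359.9 in Stat3 d/d arrays, against 40.9, 32.3 and 26.2 in Stat3 f/f arrays. Both kept the groups far apart, and both were highest in array 1 and lowest in array 4 of Stat3 f/f. Their changes were 3.42 (SE 0.16) and 3.42 (SE 0.20), so the 2 readings of this gene gave the same size of rise, with 95% intervals between 3.05 and 3.78 for the brighter and between 2.98 and 3.86 for the dimmer one.

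Gm4951, a predicted IRG gene that lies near Iigp1 on chromosome 18, had the largest rise of the 6 genes at the pseudocount of 1 used here. It read 96.4, 140.4 and 112 in Stat3 d/d arrays 1, 2 and 3, against 6.31, 4.85 and 6.32 in Stat3 f/f arrays 1, 2 and 4. The Stat3 f/f values are near the lowest intensity of the table, 2.47, and 11.6% of the table had a Stat3 f/f mean at or under its own. The log2 change was 4.09 (SE 0.19, adjusted p = 1.90e-07) and the ratio of group means 20.0. Because of the dim Stat3 f/f values this size depends on the pseudocount: the log2 change was 4.31 without one and 2.59 with a pseudocount of 16, where Iigp1, at 3.21, had the largest rise instead.

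**Figure D3:**
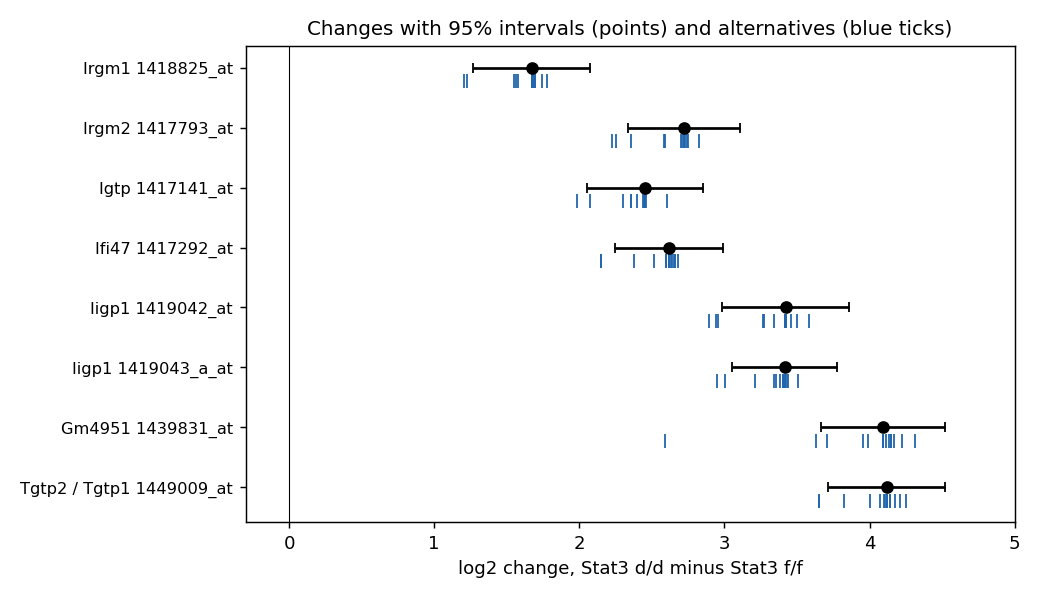
Log2 change of each IRG probe set, Stat3 d/d minus Stat3 f/f (points, with 95% intervals from limma over 3 arrays a group), and its values under the alternative settings (blue ticks). Irgm1 lies lowest at 1.67 and Gm4951 highest of the 6 genes at 4.09, with one tick of Gm4951 far to the left, at 2.59.

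In the order of the changes at a pseudocount of 1, Gm4951 stood above Iigp1, then came Irgm2, Ifi47 and Igtp, and Irgm1 was last. The 95% intervals of Irgm2, Ifi47 and Igtp overlap widely, those of Gm4951 and Iigp1 overlap as well, and that of Irgm2 just reaches that of the brighter Iigp1 probe set, so the order of these neighbours is not settled by the spread between arrays. With a pseudocount of 16 the order was Iigp1 (3.21), Gm4951 (2.59), Ifi47 (2.38), Irgm2 (2.35), Igtp (2.30) and Irgm1 (1.55). The interval of Irgm1 overlaps that of Igtp by a narrow margin, as its upper end is 2.07 and the lower end of Igtp is 2.05. Among all 1382 probe sets ranked by rise, the Iigp1 probe sets were numbers 12 and 13, Irgm2 was 28, Ifi47 35, Igtp 46 and Irgm1 132.

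**Figure D4:**
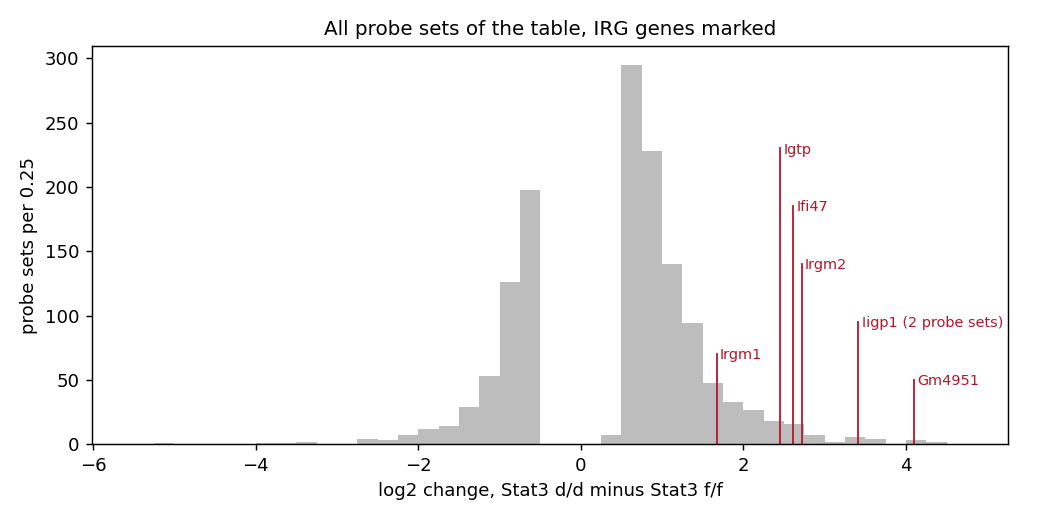
Number of probe sets per 0.25 of log2 change (Stat3 d/d minus Stat3 f/f) over the table, with the IRG genes marked by red lines of arbitrary height. The gap around 0 is the selection of the table. Irgm1 lies in the upper slope of the rises, and the other 5 genes lie in their tail.

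The regulatory and effector genes were then set against each other within each array, where a shift common to all probe sets of an array cancels. The mean log2 value of the 3 IRGM genes minus that of the 3 effectors was 0.22, 0.08 and 0.11 in Stat3 d/d arrays 1, 2 and 3, against 1.07, 1.58 and 1.04 in Stat3 f/f arrays 1, 2 and 4. The values of each group depend on the probes and have no meaning alone, but every Stat3 d/d array lay below every Stat3 f/f array. Effectors thus gained more on average, by 1.10 on the log2 scale (difference of IRGM minus effector between groups -1.10, SE over arrays 0.18). No test is given, since the genes were chosen with earlier results known. The classes were not apart gene by gene: Ifi47, an effector, changed by 2.62, and the regulatory Irgm2 by 2.72. Without Gm4951 the difference was -0.74 (SE 0.16), without Irgm1 -0.79 (SE 0.19), and without both -0.43 (SE 0.16), settings chosen after the data were seen. With a pseudocount of 16 it was -0.66.

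**Figure D5:**
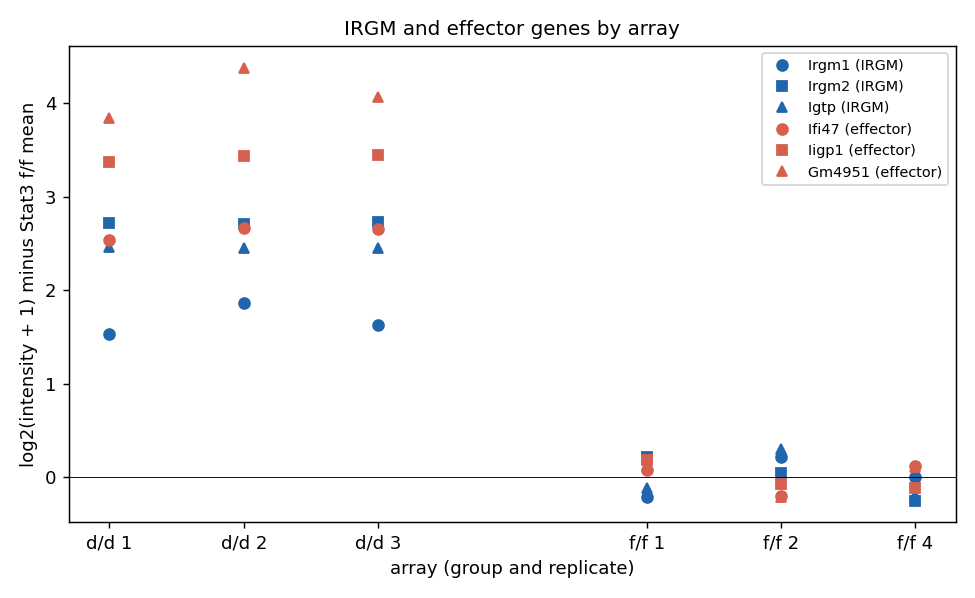
Log2(intensity + 1) of each IRG gene on each array after subtraction of its Stat3 f/f mean, with Stat3 d/d arrays on the left and Stat3 f/f arrays on the right. IRGM genes are blue and effectors red. In Stat3 d/d, Gm4951 and Iigp1 lie highest, Irgm1 lowest, and Ifi47 lies among the IRGM genes Irgm2 and Igtp.

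The arrays of a group did not order the genes alike. In Stat3 f/f, array 2 was the highest for Igtp and Irgm1 and the lowest for Ifi47 and Gm4951. In Stat3 d/d, Irgm1, Ifi47, Gm4951 and the dimmer Iigp1 probe set were highest in array 2, and these 4 and the brighter Iigp1 probe set were lowest in array 1. Igtp and Irgm2 were nearly level there.

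Of the other IRG genes listed, none had a probe set of its own in the table. One probe set is annotated to Tgtp2 and Tgtp1 together, similar effector genes close to Ifi47 on chromosome 11, and its signal cannot be divided between them. It read 1002, 1097 and 1154 in Stat3 d/d arrays 1, 2 and 3, against 59.9, 52.0 and 74.2 in Stat3 f/f arrays 1, 2 and 4. Its lowest Stat3 d/d array was 13.5 times its highest Stat3 f/f array, the log2 change was 4.12 (SE 0.18, adjusted p = 1.41e-07), and the ratio of group means 17.5. The promoters of both genes carry the same GAS letters as Irgm2, TTCCAGGAA, followed by an ISRE, GAAACTGAAA in Tgtp1 and GAAACCGAAA in Tgtp2.

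The guanylate-binding proteins (GBPs) are interferon-induced GTPases that act on the same pathogen vacuoles. Of 11 GBP genes listed, 6 were in the table and all 6 rose, with a median of 2.32, against 67.4% of the table higher. All 6 also passed after quantile normalization and after median centring, where 31.7% and 30.5% of the table were called higher. Gbp6 read 371 ± 68.1 in Stat3 d/d and 31.9 ± 6.58 in Stat3 f/f (3.50, SE 0.21), and Gbp8 read 53.4 ± 24.4 in Stat3 d/d and 5.51 ± 0.44 in Stat3 f/f (2.98, SE 0.27; SD, n = 3 arrays each). Gbp7 changed by 1.67 (SE 0.21) and Gbp3 by 1.12 (SE 0.17).

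Of 15 listed genes of interferon gamma signalling, a list that includes feedback genes, 5 were in the table. All 5 were higher, with a median of 0.87, as were 67.4% of all probe sets of the table. But only 2 of the 5 passed after either scaling of the arrays, a share near the 31.7% and 30.5% of the table called higher there. These 2 were Nlrc5, which activates transcription of MHC class I (2.97, SE 0.16), and Usp18, a protease that removes ISG15 and dampens interferon receptor signalling (1.94, SE 0.25). The transcription factor gene Irf8 gave 0.87 (SE 0.19) and the kinase gene Jak2 0.68 (SE 0.17), and after median centring 0.40 (adjusted p = 0.0913) and 0.21 (adjusted p = 0.276). Of 14 listed genes of the autophagy conjugation machinery, which places IRGs and GBPs on vacuoles, 0 were in the table, so they were not analysed here.

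Markers of macrophages, dendritic cells, T cells and NK cells in the table were also higher in Stat3 d/d, as were 67.4% of all its probe sets. After quantile normalization and after median centring, 31.7% and 30.5% of the table were called higher. Of 15 markers of macrophages and dendritic cells, 6 were in the table and all 6 were higher (median 1.22), and 4 of them passed after either scaling. Their summed intensity was 1540, 880 and 720 in Stat3 d/d arrays 1, 2 and 3, against 422, 338 and 279 in Stat3 f/f arrays 1, 2 and 4. Of 14 markers of T and NK cells, 8 were in the table and all 8 were higher (median 1.38), and all 8 passed after either scaling. Their sums were 806, 683 and 525 in Stat3 d/d arrays 1, 2 and 3, and lay between 158 and 262 in Stat3 f/f. Ighm, the 1 of 6 B and plasma cell markers in the table, changed by 0.89 (SE 0.24) and did not pass after either scaling. Of 5 neutrophil markers, 0 were in the table. No marker in the table was at 0 on any array, and the pan-T gene Cd3e was not in the table. Across the Stat3 d/d arrays the macrophage sum varied 2.14-fold and was highest in array 1, where 5 of the 7 IRG probe sets were lowest. The highest-to-lowest ratios of these 5 lay between 1.05 and 1.46. The T and NK cell sum varied 1.54-fold and was highest in that array too. In Stat3 f/f both sums were highest in array 1 and lowest in array 4, and so were Irgm2 and both Iigp1 probe sets. Ifi47 and Gm4951 were highest in array 4 of Stat3 f/f, and Igtp and Irgm1 in array 2. Ovgp1, an oviduct glycoprotein and the 1 of 5 ovary and oviduct markers in the table, read between 239.7 and 494 in Stat3 d/d and between 7.42 and 31.3 in Stat3 f/f. The stromal marker Dcn was lower (-1.06, SE 0.22), and the epithelial markers Cldn3 and Cldn4 were higher (0.74 and 0.68), though neither claudin passed after either scaling. The part of these markers in the rise of the IRG genes was not tested.

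The genes outside the family with the most similar profile were found by the root mean square difference of log2 values over the 6 arrays, after each gene had been centred on its own mean. In a table where all groups are apart, this likeness reflects mainly the size of the change. Nearest to the mean of the 6 IRG genes were Tmem267 (difference 0.069), Trim12a (0.075), Nlrc5 (0.10), Prdx2, a peroxide-reducing enzyme (0.23), and AI506816 (0.25). The IRG genes themselves lay between 0.13 (Irgm2) and 0.65 (Gm4951) from that mean. Nearest to Iigp1 were Trim34a (0.099), Nlrc5 (0.24) and Trim30d (0.24), but a second probe set of Trim34a changed by -0.61 and one of Trim30d by 0.56. Within the family the closest pair was Irgm2 and Ifi47 (0.20), ahead of the neighbours Irgm2 and Igtp (0.22), and the farthest was Irgm1 and Gm4951 (1.23).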

How the data were processed

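Uterine RNA of 6 samples, 3 Stat3 d/d and 3 Stat3 f/f, was labelled with biotin for Affymetrix arrays, per the labels' protocols. Groups came from the source names and replicate numbers from the titles. The deposited values are probe set intensities; the submitters' processing notes name RMA, with no version. RMA usually gives log2 values, while the deposited intensities are linear; how they became so, and how probe sets were selected, is not stated by any source used here. The genome build is not given in the sources used here.

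Gene names came from GEO's annotation of the platform, in which 57 probe sets carried several genes and 134 were unnamed here. Of several probe sets of a gene, the brightest on average stood for it. Values were taken as log2(intensity + 1) and all 1382 probe sets were fitted with lmFit and eBayes of limma 3.58.1 (R 4.3.3) without covariates, p-values being adjusted by Benjamini-Hochberg over the whole table and called at 0.05. The fit was tested on simulated data. The members and lists were chosen with earlier results of these data known. Named genes were all members, Stat3, up to 4 genes of each list with the smallest adjusted p, and the genes of most similar profile (5 to the family, 3 to Iigp1); Bst2, Cxcl14 and Parp11 were named after their values were seen. Cross-hybridisation between family members was not examined, since probe sequences were not used. Promoters came from RefSeq and were aligned with Biopython 1.88; figures were drawn with matplotlib 3.10.9. Alternatives were other scalings, pseudocounts, variance models, weights for arrays, dim probe sets left out, each array left out in turn, a replicate block and 45000 assumed tests.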

Additional observations from a re-analysis of the deposited data

How the results depend on the processing

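All 7 IRG probe sets stayed higher and past the threshold under the 15 alternatives run for each (16 for the brighter Iigp1 probe set), with the largest adjusted p at 0.00118, for Irgm1. Under these 15 alternatives between 28% and 67.4% of the table was called higher. Quantile normalization and median centring, which moved the median change of the table from 0.70 to 0.25 and 0.24, lowered every IRG change, and the lowest Irgm1 value was 1.21. After these scalings 438 and 422 probe sets were called higher against 451 lower each. Leaving out 1 array at a time gave 7 called IRG probe sets each time, while between 65.4% and 67.1% of the table was called higher. The IRGM minus effector change then lay between -1.19 and -0.92. This change was -0.66 with a pseudocount of 16. Among settings chosen after the data were seen it was -0.74 without Gm4951, -0.73 without Gm4951 and with that pseudocount, -0.79 without Irgm1 and -0.43 without both genes. With 45000 assumed tests all 7 IRG probe sets passed, and 387 probe sets of the table were called higher and 131 lower. The replicate numbers 1 and 2 occur in both groups but share only a number: deviations of same-numbered arrays correlated at 0.088 and 0.028. With the replicate block 7 IRG probe sets passed, with 886 probe sets of the table called higher and 398 lower. Dim signal limits the size of the Gm4951 change most.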
